A study of Mus musculus with 9 samples.

Results

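The genes described here encode the subunits of oxidative phosphorylation. They were chosen by symbol from the count table, as every gene whose symbol begins with Nduf, Uqcr or Atp5, or with Cox and a digit from 4 to 8, together with Sdha, Sdhb, Sdhc and Sdhd. This gave 90 of 23337 genes, of which 40 were assigned to complex I, 4 to complex II, 8 to complex III, 21 to complex IV and 17 to complex V. The RNA came from Cebpb-ko MEFs (immortalised mouse embryonic fibroblasts, mixed C57BL/6 x 129 background) carrying LAP, LIP or just an empty vector (EV) as a stable construct. Each group had 3 libraries, 9 in all, and all 3 groups share the Cebpb knockout. LAP and LIP are the long, activating and the short, inhibitory isoform of this transcription factor, and both were expressed from rat cDNA. The labels do not say whether the libraries of a group came from separate cultures, so p-values measure only the spread between these libraries, which may be technical.

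Oxidative phosphorylation is the last stage of respiration. Complexes I and II pass electrons from NADH and succinate to ubiquinone, complex III hands them to cytochrome c, and complex IV transfers them to oxygen. Complexes I, III and IV pump protons across the inner mitochondrial membrane, and complex V, the ATP synthase, uses their return flow to make ATP. Most subunits are encoded in the nucleus by small, constantly expressed genes, while some core subunits are encoded by mitochondrial DNA. Embryonic fibroblasts carry the general isoforms of complex IV, and several of its subunits have a second gene used mainly in muscle, lung or testis.

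The libraries held 24839139 to 33522082 counts. Levels are given as CPM, counts relative to library size after scaling by edgeR's TMM factors. A total of 3 counts stands for 0.0895 to 0.121 CPM, the limit that a count of 0 allows, and this covers counting error only. Reads on mouse Cebpb lay at 25.2 to 30.5 CPM in EV, at 25.5 to 33.2 CPM in LAP and at 28.3 to 33.3 CPM in LIP, so this row did not separate the groups. Of the 12 fibroblast markers examined, 11 averaged 20 counts or more over the 9 libraries, with a summed level of 36300 to 40860 CPM in EV, 30310 to 44500 CPM in LAP and 17670 to 31030 CPM in LIP. The macrophage and leukocyte markers summed to at most 11.3 CPM, the endothelial markers to at most 3.64 CPM and the muscle markers to at most 2.20 CPM. Epithelial markers summed to between 951 and 2106 CPM. The subunits encoded by mitochondrial DNA, searched under 26 symbols in 2 spellings, were not found in the count table, so all values below concern nuclear genes.

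Of the 90 genes, 74 encode subunits of complexes I to V that are in general use, and 73 of these averaged 20 counts or more over the 9 libraries. A further 8 are tissue-restricted isoforms, 5 encode assembly factors (Ndufaf1 to Ndufaf4, which help to build complex I, and Cox7a2l, which joins complexes III and IV into supercomplexes) and 3 match the rule by an older symbol alone. The last are Cox4nb, now Emc8, of the endoplasmic reticulum, and Atp5s and Atp5sl, now Dmac2l and Dmac2. Ndufa4 carries the name of complex I but is a subunit of complex IV, and is counted there. In all, 82 genes averaged 20 counts or more and 8 did not, 7 of them tissue-restricted isoforms. The remaining gene was Ndufs5, an accessory subunit of complex I, with 0 counts in all 9 libraries. By counting error alone, a count of 0 allows a level of up to 0.0895 to 0.121 CPM. Other rows were empty too, since Ecsit, Sco2 and Myc from the lists below also had 0 counts in all 9 libraries. Whether Ndufs5 or these genes were silent in the cells was not tested. In the annotation, 41.2% of the 50-base stretches of the Ndufs5 transcript occur also in the processed pseudogene BC002163, which had 96 to 209 counts per library. Within the coding sequence of Ndufs5 (chromosome 4, 123712710 to 123718186, GRCm38.p6), the longest stretch that they share runs from base 106 to base 318, its end. The search for this stretch was limited to the coding sequence, while the 41.2% was counted over the whole transcript. It is shown because no read was assigned to this gene.
Ndufs5 coding stretch: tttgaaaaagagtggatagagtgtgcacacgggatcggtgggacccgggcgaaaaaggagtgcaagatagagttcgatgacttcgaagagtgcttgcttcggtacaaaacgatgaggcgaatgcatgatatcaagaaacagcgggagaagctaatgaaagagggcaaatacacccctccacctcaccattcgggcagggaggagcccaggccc

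The 50-base reads over that stretch cannot be placed by sequence alone. The same holds for all of the shared 41.2% of the Ndufs5 transcript, and only for it. Its other 50-base stretches occur in no other gene of the annotation, and no read from them was counted either. Why the count was 0 was not tested. How reads with several alignments were treated is not given in the sources used here. The same limit touches other members. Of the 90 genes, the share of 50-base stretches held in common with other genes was 87.4% for Atp5g2, 84.8% for Atp5l and 66% for Atp5g1, and it was 0 for Atp5e, Ndufa4, Uqcrq and Sdhd. It was 37% for Ndufb4 and 34% for Atp5o. Exons of Atp5o, Ndufb5 and Cox6a2 overlap genes of the opposite strand over 19.6%, 20% and 10.3% of the transcript. Exons of Ndufb9 overlap a gene of the same strand over 28.6% of the transcript, and those of Ndufb2 overlap other genes over 50.3%. Reads of overlaps on the same strand cannot be told apart by strand. For the opposite strand the strand setting of the counting is not stated, so these reads cannot be told apart either.

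Levels were compared between genes as CPM per kb of transcript. In EV, the median over subunits was highest in complex IV with 272 CPM per kb (11 genes), followed by complex V with 199 (15 genes), complex III with 151 (8 genes), complex II with 90.2 (4 genes) and complex I with 72.5 (35 genes). The lower and upper quartiles were 54.1 and 97.7 CPM per kb in complex I and 168 and 373 in complex IV, so these ranges do not overlap. Those of complex III (85.1 and 166) and complex V (156 and 307.5) overlap with each other. The highest member was Atp5b, the catalytic beta subunit of the ATP synthase, with 932 ± 65.3 CPM per kb in EV, 1026 ± 55.1 in LAP and 880 ± 198 in LIP (SD, n = 3 each). Cox8a and Cox4i1, nuclear subunits of cytochrome c oxidase, stood at 576 ± 42.4 and 555 ± 48.9 CPM per kb in EV. Within complex I, Ndufb9 was highest (199 CPM per kb) and Ndufs1, the largest iron-sulphur subunit of the peripheral arm, lowest (0.524 CPM per kb). Ndufs1 had only 25 to 47 counts in any library. Atp5c1, the gamma subunit that turns inside the ATP synthase, was the lowest subunit of complex V (6.07 CPM per kb in EV) and Sdhc, a membrane anchor, the lowest of complex II (25.6 CPM per kb). Ndufs1 and Atp5c1 shared only 5.93% and 6% of their 50-base stretches with other genes. Whether their rows hold all reads of these core subunits was not tested, so the low values may not be their true levels. Uqcrh and Uqcrq marked the upper and the lower end of complex III, with 242 and 61.4 CPM per kb.

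**Figure D1:**
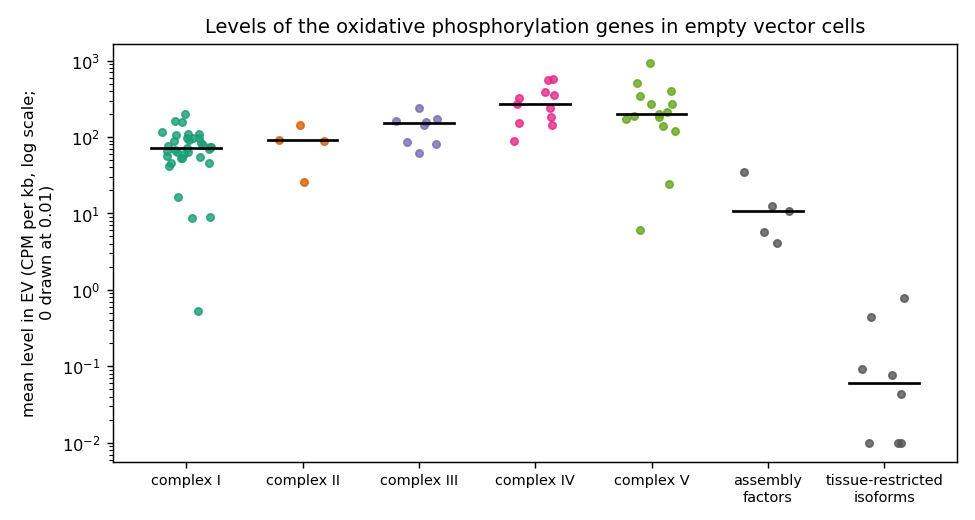
Mean level in the 3 EV libraries in CPM per kb of transcript (log scale), one point per gene, with the median as a line. Subunits averaging 20 counts or more, the 5 assembly factors and all 8 tissue-restricted isoforms are drawn, and 0 is placed at 0.01. The median rises from 72.5 in complex I to 272 in complex IV, and Ndufs1 sits far below the rest of complex I at 0.524.

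The isoform families of complex IV were carried by their general members in all 3 groups. Cox4i1 made up at least 99.98% of the family with the lung isoform Cox4i2 by level per length, and Cox6a1 made up 99.79% in EV, 99.55% in LAP and 99.78% in LIP of the family with the muscle isoform Cox6a2. Cox7a2 held 99.72% to 99.78% against the muscle isoform Cox7a1. Cox7b2, Cox8b and Cox8c had 1 count each in all 9 libraries together. Ndufa4l2, a paralogue of Ndufa4 that is known for its induction by hypoxia, had 8 counts over the EV, 9 over the LAP and 13 over the LIP libraries, against 20315, 30038 and 28312 for Ndufa4. The ring of the ATP synthase is made of identical c subunits from 3 genes. Atp5g3 supplied 58.5 ± 2.23% of their transcripts in EV, 60.1 ± 3.44% in LAP and 59.1 ± 3.66% in LIP, Atp5g2 38.7 ± 2.19%, 37.1 ± 3.69% and 37.9 ± 3.66%, and Atp5g1 2.78 ± 0.137%, 2.70 ± 0.258% and 2.98 ± 0.183% (SD, n = 3 each). These shares differed between groups by less than 1 SD in Atp5g2 and Atp5g3, with the reservation that Atp5g1 and Atp5g2 share most of their sequence with pseudogenes.

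Before the groups are compared, 2 libraries have to be described. LAP replicate 2 and LIP replicate 2 stood apart from the other 2 libraries of their group in these genes. In LAP replicate 2, 73 of the 82 genes were above the mean of LAP replicates 1 and 3, with a median difference of 0.77 on the log2(CPM + 0.5) scale, and 55 genes (67.1%) exceeded it by more than 0.5. Among all 11439 genes at this count level with a known length the median difference was 0.01 and 17.4% exceeded 0.5. In LIP replicate 2, 45 of the 82 genes lay above the mean of LIP replicates 1 and 3, with a median of 0.09, 14 genes (17.1%, all genes 13.7%) exceeded it by more than 0.5 and 5 lay more than 0.5 below it. All 14 of these raised genes were also raised by more than 0.5 in LAP replicate 2. They were Atp5e, Atp5k and Atp5l of complex V, Cox7a2, Cox7b, Cox7c and Ndufa4 of complex IV, Ndufb2, Ndufb4, Ndufb6, Ndufc1 and Ndufs4 of complex I, and Uqcrb and Uqcrq of complex III. Sdha, the catalytic subunit of complex II, was lower in both (by -0.54 in LAP replicate 2 and by -0.65 in LIP replicate 2), and Atp5a1, Atp5b, Ndufa13 and Ndufv1 were lower by more than 0.5 in LIP replicate 2. Across the 82 genes, the difference in LAP replicate 2 and that in LIP replicate 2 had Pearson's r of 0.78 and Spearman's rho of 0.77, against 0.42 and 0.40 over all 11535 genes of this count level. The members' r was 0.64 between LAP and LIP replicate 1 and 0.59 between LAP and LIP replicate 3, whose differences are taken from means that include replicate 2, and 0.13 between EV and LAP replicate 2. These correlations run across genes, which are not independent replicates, and both libraries carried the relation to length described next.

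**Figure D2:**
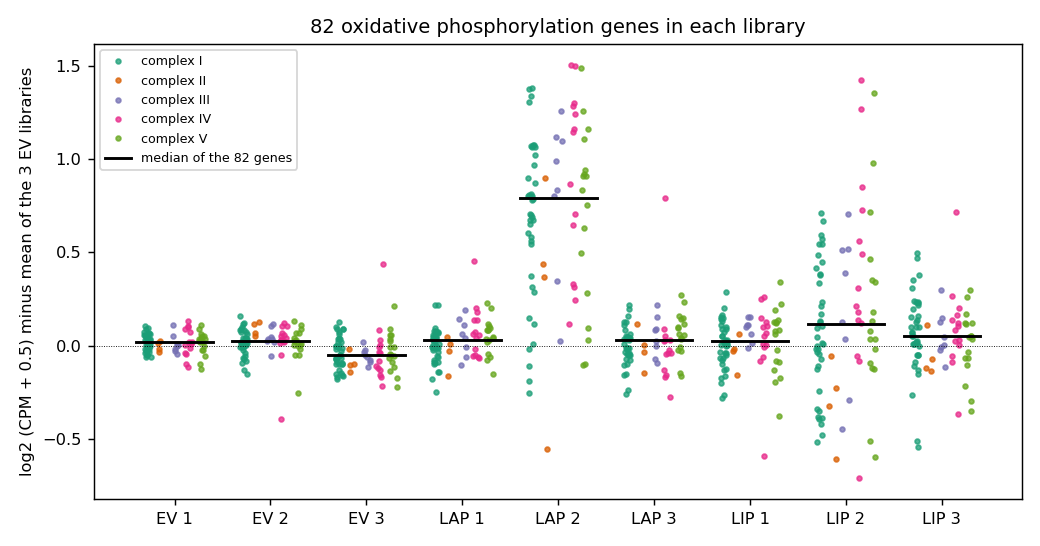
Each point is 1 of the 82 genes averaging 20 counts or more, coloured by complex. The vertical axis gives log2(CPM + 0.5) in that library minus the mean of the 3 EV libraries, and the black line is the median. LAP 2 (LAP replicate 2) has a median of 0.79, the other LAP and LIP libraries lie between 0.03 and 0.11, and LIP 2 spreads further in both directions than LIP 1 and LIP 3.

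The difference followed transcript length. Of the 82 genes, 21 have transcripts under 600 bases, 28 of at least 600 but under 1000, 24 of at least 1000 but under 2000, and 9 of 2000 bases or more. In LAP replicate 2 the median difference from the other LAP libraries fell along these classes from 1.01 over 0.81 and 0.47 to 0.09, and in LIP replicate 2 from 0.37 over 0.10 and -0.16 to -0.21. Spearman's rho with length over the 82 genes was -0.55 in LAP replicate 2 and -0.47 in LIP replicate 2, against 0.16 in EV replicate 2. Genes in general also followed length, though not by the same amounts. Over all 11439 genes, rho was -0.47 in LAP replicate 2 and -0.16 in LIP replicate 2, and the 200 genes under 600 bases had median differences of 0.79 and 0.61. In LAP replicate 2 the longer classes of all genes stood at 0.63, 0.23 and -0.09, and the members were above all genes in every class. In LIP replicate 2 all genes stood at 0.21 in the next class and at -0.08 at 2000 bases or more. There the members were lower than all genes in these classes and under 600 bases. Length did not order the genes fully, since Ndufs4 (1698 bases) was raised by 1.34 in LAP replicate 2 and Cox8a (550 bases) by 0.11. What made these libraries differ was not tested.

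**Figure D3:**
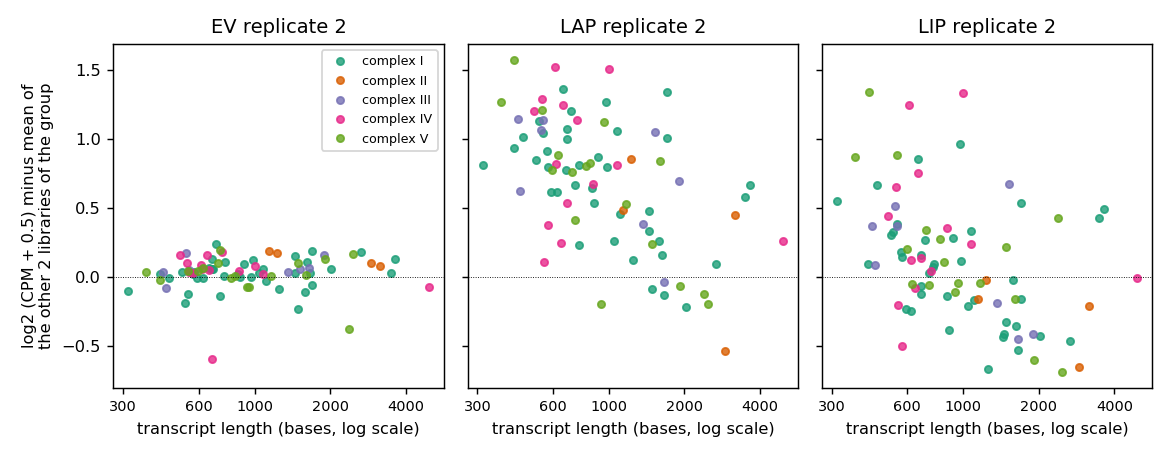
Difference of 1 library from the other 2 of its group, in log2(CPM + 0.5), against transcript length (log scale), for EV replicate 2, LAP replicate 2 and LIP replicate 2. Points are the 82 genes, coloured by complex. Short transcripts lie highest in LAP replicate 2 (rho -0.55) and LIP replicate 2 (rho -0.47), while EV replicate 2 shows values near 0 at all lengths.

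Apart from these libraries, the genes varied little. The median coefficient of variation of the 82 genes within EV was 5.27%, against 10.3% for all genes averaging 20 counts or more. Those genes were not matched to the 82 in level, so the difference need not be a trait of this set. In LAP it was 34.1%, and 5.20% without LAP replicate 2 (all genes 17.8% and 10.2%). In LIP it was 15.5%, and 4.66% without LIP replicate 2 (all genes 19.9% and 14.7%). These values describe 3 or 2 libraries each. The total level of each complex showed the same pattern. The 11 subunits of complex IV summed to 2152, 2198 and 1961 CPM in EV, to 2212, 4070 and 2031 CPM in LAP and to 2195, 2877 and 2211 CPM in LIP. LAP replicate 2 and LIP replicate 2 were the highest of their groups. LAP replicate 1 and LIP replicate 3 lay just above the highest EV library, LIP replicate 1 just below it, and LAP replicate 3 within the range of EV. The 36 subunits of complex I summed to 2357 ± 57.6 CPM in EV, 2896 ± 897 in LAP and 2479 ± 98.5 in LIP (SD, n = 3 each), with 3932 CPM in LAP replicate 2. The 4 subunits of complex II stood at 620 ± 39.8, 661 ± 79.6 and 572 ± 69.1 CPM, and those of complex III at 971 ± 35.0, 1216 ± 366 and 1031 ± 23.7 CPM. For the 15 subunits of complex V the sums were 4727 ± 269, 5527 ± 762 and 4685 ± 396 CPM, with the lowest LIP value, 4249 CPM, in LIP replicate 2.

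LIP was compared with EV to ask whether cells with the short isoform changed their respiratory chain genes. None of the 86 genes tested passed an adjusted p of 0.05 in edgeR's quasi-likelihood test (background 0.396% of 18203 genes), nor in DESeq2 or edgeR's exact test, each of which gave 1 at an unadjusted p under 0.05. In the quasi-likelihood test 0 were lower at that unadjusted p (background 6.75%) and 1, Cox7b, was higher (background 4.23%). Of the 86, 3 lay below every EV library without overlap (background 8.83%) and 13 above every EV library (15.1%, background 6.8%). Over the 82 genes the median log2 fold change was 0.08, with 56 higher and 26 lower, against 0.01 for all 11535 such genes. Only 3 of the 82 (3.66%) differed by more than 0.5 in either direction, compared with 17.2% of all 11535 such genes, which were not matched in level. By complex the medians were 0.08 for complex I, -0.13 for complex II, 0.16 for complex III, 0.19 for complex IV and 0.07 for complex V. All 4 subunits of complex II were lower, none past the test, and 10 of 11 in complex IV were higher. With the replicates numbered 2 left out of both groups, the medians were 0.06 over all 82 genes and 0.062, 0.01, 0.058, 0.107 and 0.067 for complexes I to V. Without LIP replicate 2 alone complex III stood at 0.032, and without LIP replicate 1 complex V at 0.024. With the trend over transcript length removed from each library, complexes I to V stood at -0.034, -0.13, -0.013, 0.029 and -0.017, and the split over the 82 genes turned to 50 lower and 32 higher with a median of -0.02, so the direction depended on this step.

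Cox7b (chromosome X, 106015700 to 106022450), a small subunit of cytochrome c oxidase, had 149, 156 and 146.5 CPM in EV and 156.5, 404 and 164 CPM in LIP. All LIP values were above EV, but only replicate 2 by more than a small margin. The log2 fold change was 0.68 ± 0.30 (SE, edgeR adjusted p = 0.435), and 0.08 without LIP replicate 2. Ndufa4 (chromosome 6, 11900372 to 11907450), also of complex IV, had 221, 227 and 206 CPM in EV and 220, 525 and 223 CPM in LIP. Here LIP replicates 1 and 3 overlapped with EV, with a log2 fold change of 0.56 ± 0.29 (SE, edgeR adjusted p = 0.514) that was 0.015 without LIP replicate 2. Atp5e (chromosome 2, 174461075 to 174464101), the epsilon subunit in the stalk of the ATP synthase, had 75.3, 75.6 and 78.4 CPM in EV and 75.3, 196 and 79.3 CPM in LIP. Its log2 fold change of 0.61 ± 0.30 (SE, edgeR adjusted p = 0.486) was 0.01 without LIP replicate 2. These 3 genes, the only ones past 0.5, therefore rest on 1 library.

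Less uneven were Ndufb5, an accessory subunit of complex I, Uqcr10 of complex III and Cox7a2l. Ndufb5 had 47.7, 51.2 and 50.5 CPM in EV and 53.8, 72.8 and 61.8 CPM in LIP, all above EV, with a log2 fold change of 0.335 ± 0.16 (SE, edgeR adjusted p = 0.468), or 0.21 without LIP replicate 2. Uqcr10 had 67.0 to 73.5 CPM in EV and 78.4 to 101.5 CPM in LIP (edgeR adjusted p = 0.557). Cox7a2l, the supercomplex factor, had 5.75, 6.27 and 6.59 CPM in EV and 5.84, 9.37 and 10.5 CPM in LIP, so that 2 of 3 LIP libraries were above EV (log2 fold change 0.47 ± 0.25, SE, edgeR adjusted p = 0.551). The lowest fold change of the 82 genes was that of Cox6a1, the general isoform of subunit VIa, with 243, 225 and 199 CPM in EV and 212, 135 and 172 CPM in LIP. Its groups overlapped, and the log2 fold change was -0.36 ± 0.185 (SE, edgeR adjusted p = 0.522). Sdhc of complex II was below every EV library, with 79.1, 83.9 and 80.1 CPM in EV and 72.5, 64.7 and 77.2 CPM in LIP, a log2 fold change of -0.18 ± 0.15 (SE, edgeR adjusted p = 0.706). Ndufs1 differed by -0.28 ± 0.33 (SE, edgeR adjusted p = 0.748) at 25 to 47 counts.

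The comparison of LAP with EV asked the same of the long isoform. Again 0 of 89 genes passed the adjusted p in edgeR's quasi-likelihood test (background 0.0606% of 18156 genes), in DESeq2 and in edgeR's exact test. The last 2 gave 6 and 5 genes at an unadjusted p under 0.05. In the quasi-likelihood test, 10 of 89 (11.2%) were higher (background 1.93%) and 0 lower (background 1.34%). Without overlap between the groups, 11 (12.4%) lay above EV (background 3.81%) and 0 below (background 3.76%). The median over the 82 genes was 0.30, with 75 higher and 7 lower, and complex IV had the highest median (0.47), ahead of complex III (0.40), complex V (0.38), complex I (0.285) and complex II (0.10). This rests on LAP replicate 2. Without that library the median was 0.01 and no gene reached an unadjusted p of 0.05. Without the replicates numbered 2 of both groups the median was 0.03, with 50 genes higher and 32 lower, and quartiles of -0.03 and 0.09. With the length trend removed it was 0.055, with 52 higher and 30 lower.

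Single genes showed the same. Ndufb9 of complex I had 140, 156 and 124 CPM in EV and 162, 362 and 152 CPM in LAP. One library was far above the others, and the log2 fold change of 0.67 ± 0.27 (SE, edgeR adjusted p = 0.918) was 0.17 without it. In Cox4i1, the highest subunit of complex IV in LAP, LAP replicate 2 reached 911 CPM while LAP replicates 1 and 3 had 429 and 401 CPM and EV 376 to 449 CPM. Sdhd, the other membrane anchor of complex II, had 174, 331 and 192 CPM in LAP and 165 to 192 CPM in EV, with a log2 fold change of 0.37 ± 0.21 (SE, edgeR adjusted p = 0.918). Sdha of the same complex went the other way in LAP replicate 2, with 257, 174 and 249 CPM in LAP against 260, 268 and 238.5 CPM in EV. Among the assembly factors, Ndufaf4 had 39.5, 63.2 and 39.7 CPM in LAP and 34.7 to 41.0 CPM in EV, and Ndufaf3 was the lowest of them, with a log2 fold change of -0.155 ± 0.20 (SE, edgeR adjusted p = 0.953).

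Cox6a2, the muscle isoform of subunit VIa (chromosome 7, 128205435 to 128206366, GRCm38.p6), was 1 of the 11 genes with every LAP library above every EV library, and its log2 fold change was the largest of the 82 in LAP against EV. It had 15, 7 and 29 counts in EV (0.467, 0.258 and 0.849 CPM), 28, 48 and 33 counts in LAP (0.863, 1.73 and 1.22 CPM) and 4, 14 and 20 counts in LIP (0.163, 0.459 and 0.646 CPM). After TMM scaling every LAP library was above every EV and LIP library, with a narrow gap of 0.863 to 0.849 CPM towards EV. This gap depended on the scaling. LAP replicate 1 had 28 of 33522082 counts and EV replicate 3 had 29 of 33467491, so their order was reversed by total counts alone. Against EV the LAP group had a log2 fold change of 1.22 ± 0.41 (SE, unadjusted p = 0.0096, edgeR adjusted p = 0.918) and 0.95 without LAP replicate 2. At this level counting error alone is large, and Cox6a2 remained under 0.5% of the family with Cox6a1 in each group. The muscle markers summed to 1.31 to 2.20 CPM in EV, 2.12 to 2.18 CPM in LAP and 1.84 to 2.16 CPM in LIP, with only 1 of 11 at a mean of 20 counts and 3 at 0 throughout. Acta1, skeletal muscle actin, had 7, 7 and 6 counts in EV, 22, 15 and 11 in LAP and 20, 21 and 4 in LIP. Its log2 fold change was 1.31 ± 0.43 in LAP against EV (SE, edgeR adjusted p = 0.918) and 1.30 ± 0.62 in LIP against EV (SE, edgeR adjusted p = 0.471), where that of Cox6a2 was -0.30 ± 0.55. The part of muscle markers in the result was not tested.

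**Figure D4:**
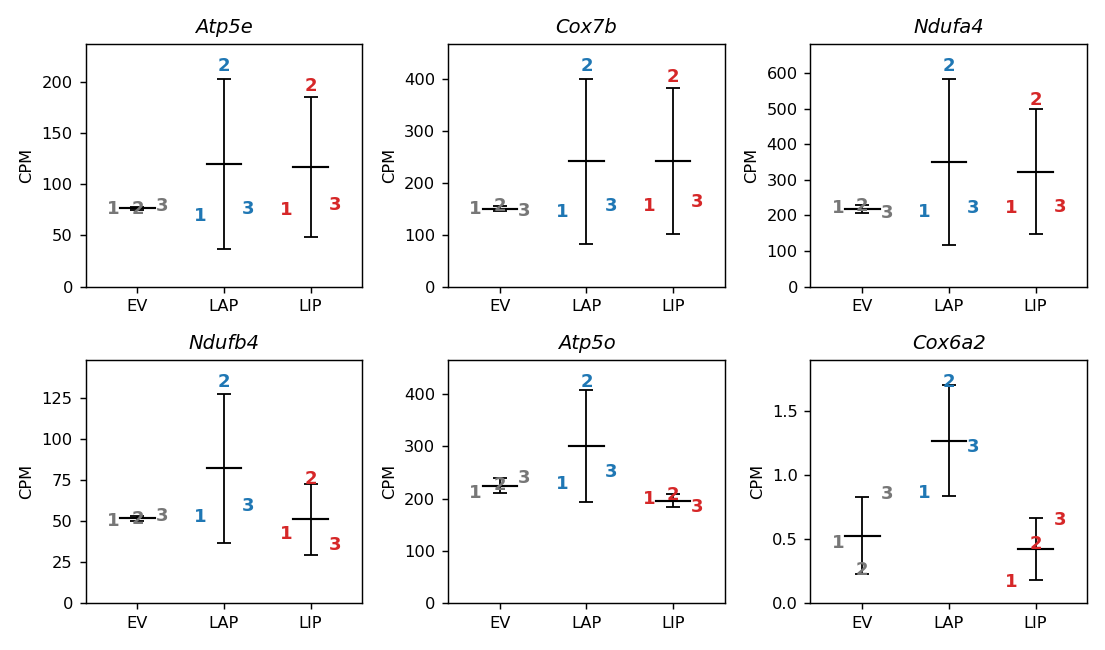
CPM of 6 genes in each of the 9 libraries, with axes that start at 0. Digits mark the replicate number in EV (grey), LAP (blue) and LIP (red), and black bars show the mean and the SD of 3 libraries. Atp5e, Cox7b and Ndufa4 are high in replicate 2 of LAP and of LIP. In Cox6a2 the 3 LAP libraries lie above all others after TMM scaling, by a narrow gap towards EV.

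LIP was then compared with LAP, the contrast between the isoforms themselves. Without a term for the replicate number, 0 of 89 genes passed the adjusted p in edgeR's quasi-likelihood test (background 1.05% of 18166 genes), in DESeq2 and in edgeR's exact test, both with 3 genes at an unadjusted p under 0.05. In the quasi-likelihood test, 3 were lower (background 5.98%) and 0 higher (background 3.3%). Without overlap, 6 lay below LAP (background 6.58%) and 0 above (background 6.23%). The median of the 82 genes was -0.18, with 66 lower and 16 higher, between -0.17 in complex IV and -0.24 in complex II. Without LAP replicate 2 it was 0.06 (29 lower, 53 higher), and without the replicates numbered 2 of both groups it was 0.015, with 39 lower and 43 higher. With the length trend removed it was -0.10, with 56 lower and 26 higher. Since LAP and LIP libraries of the same number deviated together, the numbers were also used as a block. With the replicate block 3 of the 89 genes (3.37%) were called, which is below the 6.51% of all genes called in that fit. They were Cox6a2, Ndufb4 and Atp5o, all lower in LIP.

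Ndufb4 (chromosome 16, 37647602 to 37654368), an accessory subunit of complex I, had 50.1 to 52.9 CPM in EV, 52.3, 134 and 59.1 CPM in LAP and 42.2, 75.4 and 35.1 CPM in LIP. The groups overlapped, because LIP replicate 2 was above LAP replicates 1 and 3, but within each number LIP was below LAP. The log2 fold change was -0.655 ± 0.32 without the replicate block (SE, edgeR adjusted p = 0.548) and -0.61 ± 0.18 with it (SE, edgeR adjusted p = 0.0151). Without LAP replicate 2 it was -0.13, and without both replicates numbered 2 it was -0.54 (edgeR adjusted p = 0.692). Atp5o (chromosome 16, 91925223 to 91931630), which ties the stalk of the ATP synthase to its catalytic head, had 210 to 239 CPM in EV, 227, 423 and 251 CPM in LAP and 199, 206 and 183 CPM in LIP. All LIP libraries were below all LAP and EV libraries, most widely against LAP replicate 2. The log2 fold change was -0.59 ± 0.25 (SE, edgeR adjusted p = 0.449), -0.54 ± 0.18 with the replicate block (SE, edgeR adjusted p = 0.0473) and -0.29 without LAP replicate 2. Cox6a2 was lower by -1.52 ± 0.48 (SE, edgeR adjusted p = 0.185), by -1.60 ± 0.40 with the replicate block (SE, edgeR adjusted p = 0.00407) and by -1.27 without LAP replicate 2. When the trend with transcript length was removed together with the replicate block, Cox6a2 (edgeR adjusted p = 0.0203) and Ndufb4 (0.0463) were still past the threshold and Atp5o was not (0.0845).

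The other named genes did not pass with or without the block. Sdhd differed by -0.40 ± 0.25 (SE, edgeR adjusted p = 0.706) and Uqcrc2, an accessory subunit of complex III, by -0.39 ± 0.24 (SE, edgeR adjusted p = 0.710). In Uqcrc2 the LAP libraries had 188, 293 and 174 CPM and the LIP libraries 177, 134 and 180 CPM, so replicate 2 was the highest in LAP and the lowest in LIP. The assembly factor Ndufaf1 had the same order, with 18.9, 27.2 and 19.9 CPM in LAP and 19.0, 14.3 and 19.2 CPM in LIP. The 3 genes with the largest positive values were Cox7a2l (0.26 ± 0.31), Ndufaf3 (0.16 ± 0.29) and Atp5sl (0.11 ± 0.27), each smaller than its standard error. Atp5s, the lowest of the genes grouped with complex V, had 4.16 to 6.94 CPM over the 9 libraries.

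**Figure D5:**
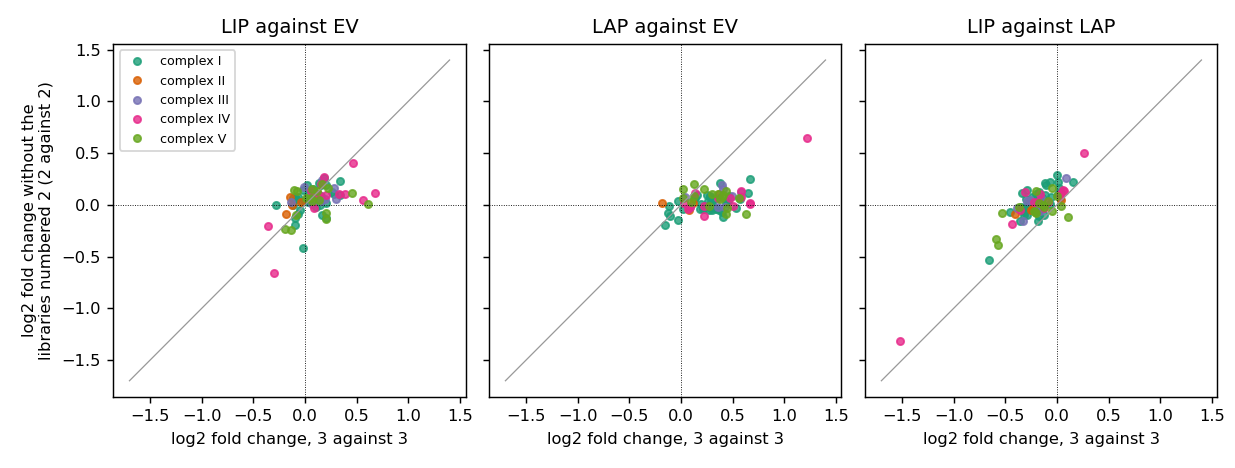
Log2 fold changes of the 82 genes in the 3 comparisons, with 3 libraries per group on the horizontal axis and without the replicates numbered 2 on the vertical axis. The grey line marks equality. In LAP against EV the genes spread up to 1.22 horizontally but keep within 0.25 of 0 vertically apart from Cox6a2 (0.65), and in LIP against LAP the medians are -0.18 and 0.015.

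Other genes of the same pathway were read from lists outside the rule. Of 27 further assembly factors in the count table, Ecsit and Sco2 had 0 counts in all 9 libraries. None of the other 25 passed the adjusted p in any of the 3 comparisons by edgeR's quasi-likelihood test. At an unadjusted p under 0.05 there was 1 gene per comparison. The medians of the 25 were 0.01 in LIP against EV, 0.24 in LAP against EV and -0.20 in LIP against LAP. Atpaf1, which helps to assemble the head of the ATP synthase, had the smallest p of that list in LIP against EV, with 20.9 to 23.2 CPM in EV, 21.0 to 33.5 CPM in LAP and 15.0 to 18.7 CPM in LIP, so that every LIP library was below every other (log2 fold change against EV -0.42 ± 0.18, SE, edgeR adjusted p = 0.417). Of up to 26 electron carriers and genes of ATP or proton handling 0 passed, again with 1 gene per comparison at an unadjusted p under 0.05 and with medians of 0.02, 0.16 and -0.135. Usmg5, a small ATP synthase subunit outside the rule, was high in replicate 2 of LAP and of LIP, as Atp5e was. It had 86.5 to 92.3 CPM in EV, 93.0, 269 and 90.1 CPM in LAP and 106, 273 and 105 CPM in LIP. Unlike in Atp5e, every LIP library was above every EV library. Its log2 fold change in LIP against EV was 0.85 ± 0.305 (SE, edgeR adjusted p = 0.3155), with the smallest p of that list. Cyc1, the cytochrome of complex III, had 165 to 207 CPM in EV, 196 to 243 CPM in LAP and 178 to 232 CPM in LIP.

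The 21 tested regulators of mitochondrial biogenesis gave 0 calls in each comparison (2, 1 and 0 genes at an unadjusted p under 0.05), with medians of 0.10, 0.06 and -0.065. Peo1, the mitochondrial DNA helicase Twinkle, had the smallest p in LIP against EV, with 44.6 to 48.0 CPM in EV and 52.5 to 64.6 CPM in LIP without overlap (log2 fold change 0.37 ± 0.15, SE, edgeR adjusted p = 0.387). Tfam, which packages and transcribes mitochondrial DNA, had 71.2 to 83.7 CPM in EV and 79.8 to 86.2 CPM in LIP. Ppargc1a, a coactivator of mitochondrial genes, had at most 1 count per library. Nrf1, a factor that binds many promoters of these genes, was named after its values were seen, for the motif below. It had 18, 23 and 14 counts in EV, 7, 6 and 7 in LAP and 15, 10 and 14 in LIP, and LAP against EV gave a log2 fold change of -1.38 ± 0.44 (SE, edgeR adjusted p = 0.918). None of the fibroblast, leukocyte, epithelial, endothelial or muscle markers passed the adjusted p in any comparison. Of the 12 fibroblast markers, 8 were lower in LIP than in EV at an unadjusted p under 0.05, with a median log2 fold change of -0.83 over the 11 that averaged 20 counts. Lum, the proteoglycan lumican, had 45, 14 and 3 counts in EV and 0 in each LIP library. In the other marker lists at most 2 genes in either direction had an unadjusted p under 0.05, and the smallest p of each list in LIP against EV was that of Cd14 (55 to 61 counts in LIP, 95 to 113 in EV), Cdh1 (24 to 76 and 90 to 111), Tek (4 to 15 and 16 to 35) and Acta1, whose unadjusted p of 0.0564 was above 0.05. These lists did not move in 1 direction. Of the epithelial markers, 1 was lower and 2 were higher in LIP than in EV at that unadjusted p, with a median log2 fold change of 0.297 over the 5 averaging 20 counts. Krt18 stood at 0.99 ± 0.356 and Krt8 at 0.48 ± 0.202 (SE, edgeR adjusted p = 0.314 and 0.411). The leukocyte marker Cd68 was higher by 0.70 ± 0.334 (SE, edgeR adjusted p = 0.478). Whether these markers bear on the levels of the respiratory genes was not tested.

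Promoter windows, from 250 bases before to 50 bases after the start of each gene in RefSeq on GRCm38.p6, were available for 74 of the 90 genes (80 windows). They were searched on both strands for the C/EBP half-site pair TTGCNNAA, the NRF1 core CGCATGCG, the ETS core CCGGAAG bound by GABPA and the motif of YY1. The C/EBP letters were in 12.5% of the windows of these genes and in 10.8% of all 32851 windows, and the perfect palindrome TTGCGCAA, a special case of the former, was in none and in 0.183%. The NRF1 core was in 12.5% against 1.87%, the ETS core in 21.2% against 8.86% and the YY1 motif in 8.75% against 0.852%. A match is a description of the sequence and not a site of binding. The 250 bases before the start are shown for 4 members that differed in the libraries numbered 2, chosen after their values were seen. Atp5e (chr2:174464102-174464351) and Atp5l (chr9:44920743-44920992) were raised in replicate 2 of LAP and LIP. Cox6a1 (chr5:115348959-115349208) was lower in LIP replicate 2 (by -0.496) but higher in LAP replicate 2 (by 0.377). Sdha (chr13:74350241-74350490) was lower in both libraries. All 4 lie on the minus strand, each is given 5′ to 3′ on the strand of the gene, and capitals mark the motifs found.
Atp5e: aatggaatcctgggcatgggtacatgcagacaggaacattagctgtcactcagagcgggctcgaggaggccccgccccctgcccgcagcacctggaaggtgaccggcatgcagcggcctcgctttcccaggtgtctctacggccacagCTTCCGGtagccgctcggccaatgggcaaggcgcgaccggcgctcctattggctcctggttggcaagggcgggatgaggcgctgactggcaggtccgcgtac
Atp5l: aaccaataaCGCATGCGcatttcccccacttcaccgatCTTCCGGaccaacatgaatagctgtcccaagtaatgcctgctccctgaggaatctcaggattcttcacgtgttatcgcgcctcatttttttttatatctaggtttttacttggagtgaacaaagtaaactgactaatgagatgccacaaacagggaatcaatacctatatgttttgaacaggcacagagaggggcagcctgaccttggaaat
Cox6a1: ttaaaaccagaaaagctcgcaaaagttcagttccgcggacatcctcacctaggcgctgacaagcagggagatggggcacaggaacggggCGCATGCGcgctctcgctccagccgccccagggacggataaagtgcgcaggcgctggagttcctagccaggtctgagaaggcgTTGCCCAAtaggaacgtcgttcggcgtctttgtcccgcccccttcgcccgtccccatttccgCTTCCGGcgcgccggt
Sdha: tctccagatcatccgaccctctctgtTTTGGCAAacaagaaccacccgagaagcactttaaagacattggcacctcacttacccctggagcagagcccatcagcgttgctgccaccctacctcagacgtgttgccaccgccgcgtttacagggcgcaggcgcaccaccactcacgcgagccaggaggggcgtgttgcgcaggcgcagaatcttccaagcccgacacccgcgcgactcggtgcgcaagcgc

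The capitals are an ETS core 102 bases before the start of Atp5e, an NRF1 core at 241 and an ETS core at 212 bases before that of Atp5l, and in Cox6a1 an NRF1 core at 161, a C/EBP match at 78 and an ETS core at 16 bases before the start. Sdha held a C/EBP match at 224 bases before its start. The ETS cores and the match of Sdha read on the other strand.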

How the data were processed

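RNA of the 9 libraries was sequenced by the authors on an Illumina HiSeq as 50 bp single-end reads from TruSeq RNA v2 libraries, extracted with bcl2fastq 1.8.3, aligned with TopHat 1.4.1 and counted per gene with HTSeq 0.5.4. The deposited values are raw counts without normalization, with 23337 genes and 9 library columns, and 0 columns were left unused. The study names the genome GRCh38/mm10 with RefSeq genes. Strand setting and multiple alignments are not given in the sources used here. Groups follow the labels. The members, lists and tests were chosen with earlier results of these data known.

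Each pair of groups was tested on its 6 libraries and every gene with at least 1 count, with TMM factors (0.949 to 1.10 over 9 libraries) and edgeR 4.0.16 in R 4.3.3 (quasi-likelihood test, Benjamini-Hochberg over all genes, threshold 0.05). Standard errors are the log2 fold change over the square root of F. An exact permutation test could not go below 0.1 and was not used. Named are members with the smallest p per complex, the 3 largest changes in each direction, the highest and lowest level per complex, the isoform families and calls. Medians use genes with a mean of 20 counts. Lengths come from GENCODE M21, positions and promoters from RefSeq GRCm38.p6, where 90 members matched, 4 under another symbol. Lists were complex assembly factors, electron carriers and ATP or proton handling, biogenesis regulators, mitochondrially encoded subunits and markers of fibroblasts, leukocytes, epithelium, endothelium and muscle. The test was tried on simulated data.

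The alternatives were DESeq2 1.42.0, edgeR's exact test, the non-legacy quasi-likelihood form, other scalings and filters, a joint model of the 9 libraries, each library left out and the replicate block. Libraries of the same number correlated in their deviations from the group means in LIP against LAP (r = 0.558, 0.413 and 0.466) and LAP against EV (0.524, 0.21 and 0.511), so these numbers, which come from the labels, were taken to pair the libraries. Leaving out both libraries numbered 2 and removing the transcript length trend were chosen after seeing the data. Plots were made in matplotlib 3.10.9 (Python 3.11.15).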

Additional observations from a re-analysis of the deposited data

Results flagged for a closer look

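In LIP against LAP, 3 genes passed the adjusted p once the replicate number was a block, though not without it. The labels do not say that these numbers pair the libraries, and the correlations that led to the block came from these same data. Cox6a2 had a log2 fold change of -1.60 with the block (edgeR adjusted p = 0.00407), and every LIP library was below every LAP library. Ndufb4 stood at -0.61 (edgeR adjusted p = 0.0151), lower in 3 of 3 pairs of the same number. Atp5o stood at -0.54 (edgeR adjusted p = 0.0473), also lower in 3 of 3 pairs, but its fold change was -0.29 without LAP replicate 2, and it missed the threshold (edgeR adjusted p = 0.0845) when the length trend was removed together with the block. Without LAP replicate 2 and without the block, Ndufb4 stood at -0.13 and Cox6a2 at -1.27. The adjusted p without the block ranged from 0.185 to 0.548 over these genes. With the block, the 3 genes are 3.37% of the 89 members tested, below the 6.51% of all genes called in that same fit.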

How the results depend on the processing

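No member was called in LIP against EV or in LAP against EV under any alternative run. In LIP against LAP the count was 3 with the replicate block, 2 with the block and the length trend removed, and 0 to 1 when 1 library was left out. The single call was Cox6a2 without LIP replicate 3 (edgeR adjusted p = 0.0197). The block changed no other call of a member.

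Leaving out 1 library at a time moved the median log2 fold change in LIP against LAP from -0.322 to 0.062 for all members, from -0.348 to 0.057 for complex I, from -0.30 to -0.10 for complex II, from -0.40 to 0.18 for complex III, from -0.34 to 0.12 for complex IV and from -0.33 to -0.016 for complex V, the highest value coming without LAP replicate 2. In LIP against EV it moved complex III from 0.032 to 0.209 and complex V from 0.024 to 0.126. The same step turned the sign of Cox6a2 in LIP against EV (-0.72 to 0.23), of Cox7b in LAP against EV (-0.006 to 0.93), and of Atp5sl (-0.057 to 0.273) and Ndufaf3 (-0.066 to 0.302) in LIP against LAP. Without both libraries numbered 2, LIP against LAP gave 0.015 for all members and 0.063, -0.039, 0.002, 0.032 and -0.018 for complexes I to V, LIP against EV gave 0.01 for complex II, and Sdha (0.021 in LAP against EV) and Atp5sl (-0.12 in LIP against LAP) changed sign.

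With the length trend removed, medians in LIP against EV were -0.019 for all members, -0.034 for complex I, -0.013 for complex III, 0.029 for complex IV and -0.017 for complex V, and with the block added -0.034, -0.042, -0.017, 0.025 and -0.023. In LIP against LAP they were -0.10 for all members, -0.11 for complex I and -0.10 for complex V, each to the same rounding with the block. In LAP against EV the median fell to 0.055. Scaling by total counts alone gave 0.13 for all members and 0.11 for complex V in LIP against EV, and -0.11, -0.11 and -0.14 for all members and complexes I and V in LIP against LAP, and it gave complex III in LIP a sum of 1063 CPM. Except for what the libraries left out show, the cause was not tested.

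In LIP against EV the libraries of the same number correlated at r = 0.29, -0.121 and 0.231, which does not pair them. The replicate block gave 0 members there and 467 calls among all genes, against 72 without it. Over all genes the number of calls depended on the method. It was 72 in LIP against EV, but 321 by DESeq2, 301 by the exact test, 157 in the joint model of 9 libraries, 36 by total counts, 19 by the non-legacy form, 4 after edgeR's expression filter and 0 with 10 counts demanded in every library. In LAP against EV, 11 calls became 26, 33, 5, 13, 6, 3 and 0 in that order (54 with the block), and in LIP against LAP, 190 became 255, 242, 263, 113, 10, 2 and 0 (1183 with the block, 7 without LAP replicate 2). Depth limits Cox6a2, Ndufs1 and the tissue-restricted isoforms, which had few or no counts.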
